A study of Arabidopsis thaliana with 7 samples.

Results

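Flavonoid glycosyltransferases attach sugars to flavonols and anthocyanins, the coloured and ultraviolet-absorbing compounds that plants make from phenylalanine. They are members of the large UGT family, which uses UDP-sugars as donors. Glycosylation makes flavonoids soluble and is usually followed by storage in the vacuole. In the Arabidopsis seed, flavonol glycosides are found in the embryo and seed coat, whereas the proanthocyanidins of the inner seed coat are built from the same precursors by a separate branch. The 4 genes described here were chosen by name and not by a cut on their values, though earlier results of these data were known. UGT78D1 transfers rhamnose to flavonols. UGT78D2 transfers glucose to flavonols and to anthocyanidins. UF3GT, also known as UGT79B1, adds xylose to the glucose of anthocyanins. AT4G14090, known as UGT75C1, adds a further glucose to anthocyanins. Each had 1 probe set naming that gene alone, so the set is 4 probe sets of 22746 tested, and 4 genes of the 13356 named singly on the array. Sequences of these genes were not used here.

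The samples were whole developing Arabidopsis thaliana seeds from 3 myb5 arrays (plants carrying the myb5-1 allele) and 4 wild-type arrays (the Col accession). Both genotypes were grown side by side on soil under constant light, and seeds were taken from globular to walking-stick embryo stages. MYB5, of the MYB family of transcription factors, is known for its part in seed coat mucilage and tannin formation, and the comparison asks which seed transcripts differ when the myb5-1 allele is present. The labels do not say how many plants were pooled for a sample, and 1 allele was used. The level of MYB5 was not analysed here.

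Values are deposited linear intensities, 1 per probe set and array. Differences are myb5 minus wild type on a log2(intensity + 16) scale after quantile normalization. Median intensities were 52.3 to 54.6 on the myb5 arrays and 49.2 to 51.0 on the wild-type arrays, so the genotypes did not overlap before that normalization. Myb5 replicate 1 and wild-type replicates 1 and 2 stood apart from the other 4 arrays along the first principal component, which held 56.8% of the variance. This split mixes the genotypes and was read from these data, not from a label. No test between these sets of arrays was made. They serve below to describe which arrays were high or low, and as a term or a restriction in further fits of the genotype difference. Of the seed coat markers, 2 of 4 were measured and were bright on all 7 arrays, with a summed intensity of 8499 to 13197 in myb5 and 7890 to 12906 in wild type. The measured embryo and endosperm markers, 1 of 4 and 2 of 4, were dim on every array: CLV3 did not exceed 7.54, and the endosperm sum ran from 8.96 to 21.1 in myb5 and from 7.91 to 12.9 in wild type. With so few markers measured, these values do not show how much embryo or endosperm RNA the samples held.

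UGT78D1, the flavonol rhamnosyltransferase, was the member with a strong signal on every array. Its intensity was 1534, 1653 and 1746 in myb5 replicates 1, 2 and 3, against 1414, 1384, 1588 and 2128 in wild-type replicates 1, 2, 3 and 4. All 3 myb5 arrays lay inside the wild-type range. The mean was 1644 ± 106 in myb5 (SD, n = 3) and 1629 ± 345 in wild type (SD, n = 4). On every array, at least 97.2% of the probe sets tested were dimmer than UGT78D1. Between the highest and the lowest array its intensity differed 1.54-fold, the smallest such range among the 4 members.

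UGT78D2, the flavonoid glucosyltransferase, was of middling brightness and varied more between arrays. Its intensity was 160.3, 90.1 and 55.6 in myb5 replicates 1, 2 and 3, against 141, 147, 62.5 and 87.3 in wild-type replicates 1, 2, 3 and 4. Each genotype held both high and low arrays, and the ranges overlapped. The mean was 102 ± 53.4 in myb5 (SD, n = 3) and 109 ± 41.0 in wild type (SD, n = 4). The highest array exceeded the lowest 2.88-fold.

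UF3GT, the anthocyanin xylosyltransferase, had the widest range among the members above an intensity of 16. Its intensity was 139, 39.2 and 34.7 in myb5 replicates 1, 2 and 3, against 105, 67.1, 33.8 and 34.2 in wild-type replicates 1, 2, 3 and 4. The highest and the second highest array came from different genotypes, and 4 arrays sat close together between 33.8 and 39.2. The mean was 70.9 ± 58.9 in myb5 (SD, n = 3) and 59.9 ± 33.7 in wild type (SD, n = 4), and in each genotype the SD exceeded the difference between the means.

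AT4G14090, the anthocyanin glucosyltransferase UGT75C1, gave almost no signal. Its intensity was 2.95, 1.83 and 2.84 in myb5 replicates 1, 2 and 3, against 1.40, 1.94, 3.80 and 0.838 in wild-type replicates 1, 2, 3 and 4. Of the probe sets tested, between 4.06% and 14.9% were dimmer on any array. No detection call was used, so these values do not show whether the transcript was present. The 4.53-fold range between its arrays lies wholly under an intensity of 16, below which 29.1% to 32.3% of all probe sets fell on each array.

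**Figure D1:**
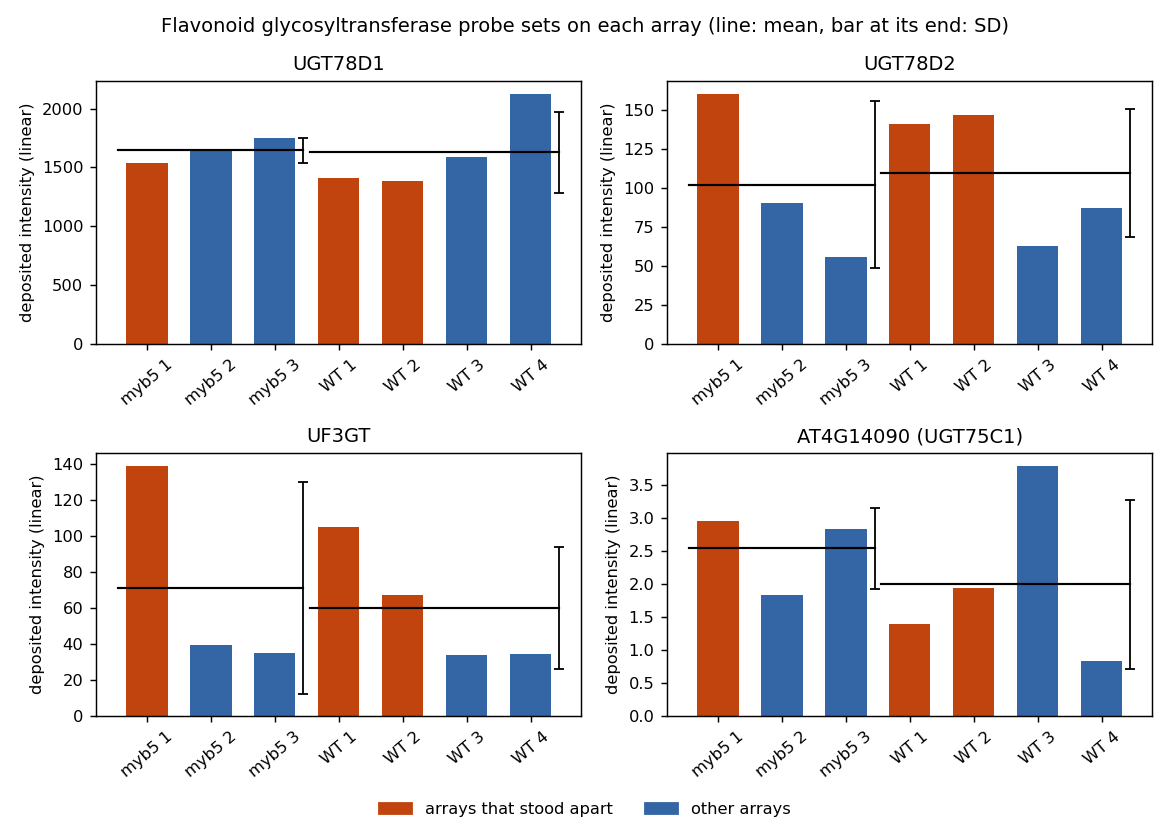
Deposited linear intensity (vertical axes, from 0) of the 4 genes on each of the 7 arrays (horizontal axes), with myb5 replicates left of wild-type (WT) replicates; horizontal lines are genotype means and the bars at their ends are SDs (n = 3 and n = 4). UGT78D2 and UF3GT are high on myb5 replicate 1 and wild-type replicates 1 and 2, where UGT78D1 is lowest, and AT4G14090 does not exceed 3.80 on any array.

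Between the genotypes, none of the 4 genes passed the test. Over the whole array 1 probe set passed a limma adjusted p of 0.05, which is 0.0044% of those tested, and it is not a member. At an unadjusted limma p under 0.05 the count was 0 of 4 members, beside 3.46% of all probe sets. On deposited intensities 0 of 4 members were without overlap between the genotypes, beside 4.88% of all probe sets. The median log2 difference of the members was 0.019, against -0.00035 over all probe sets.

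The log2 difference of UGT78D1 was 0.066 with a 95% interval of -0.37 to 0.50 (limma adjusted p = 1.00; exact two-sided permutation p = 0.743). For UGT78D2 it was -0.17, with an interval of -1.06 to 0.72 (limma adjusted p = 1.00; exact permutation p = 0.714). For UF3GT it was 0.028, with an interval of -1.10 to 1.16 (limma adjusted p = 1.00; exact permutation p = 0.943). These intervals differ in what they allow. That of UGT78D1 leaves out a doubling or a halving, whereas those of UGT78D2 and UF3GT each reach past 1 on the log2 scale in at least 1 direction. For AT4G14090 the difference was 0.010, with an interval of -0.24 to 0.26 (limma adjusted p = 1.00; exact permutation p = 0.943). That narrow interval comes from the added constant of 16: with a constant of 1 the difference was 0.12 and the interval ran from -0.72 to 0.97. The exact tests used all 35 splits of the arrays, and the smallest p they can give is 0.0286.

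Leaving out single arrays could turn the direction of each difference. UGT78D2 was at 0.14 without myb5 replicate 3 and at -0.52 without myb5 replicate 1. UF3GT was at -0.51 when myb5 replicate 1 was left out, and at -0.15 and -0.13 when wild-type replicate 3 or 4 was. UGT78D1 was at -0.017 without wild-type replicate 2 and at 0.21 without wild-type replicate 4. AT4G14090 was at -0.012 when myb5 replicate 1 was left out, and at -0.0063 and -0.022 when wild-type replicate 1 or 4 was.

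**Figure D2:**
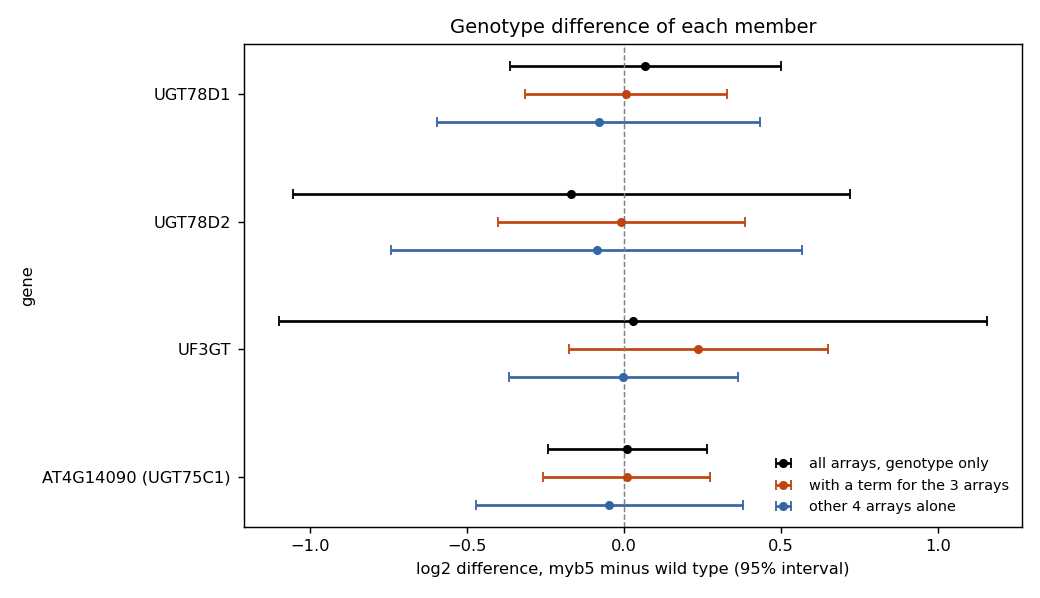
Log2 difference, myb5 minus wild type (horizontal axis), of each gene (vertical axis), with 95% intervals from limma over all 7 arrays, over all 7 with a term for the 3 arrays that stood apart, and over the other 4 arrays alone. Every interval spans 0, and those of UGT78D2 and UF3GT narrow once the 3 arrays have a term of their own. The 3 arrays were picked from these same data, so the narrowing is no separate result and those intervals may be too narrow.

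Much of the spread of UGT78D2 and UF3GT lay along the split between the arrays. UGT78D2 had 141 to 160.3 on the 3 arrays that stood apart and 55.6 to 90.1 on the other 4. UF3GT had 67.1 to 139 on the 3 arrays and 33.8 to 39.2 on the other 4. UGT78D1 lay the other way, at 1384 to 1534 on the 3 arrays and 1588 to 2128 on the other 4, with a small gap between the sets. AT4G14090 overlapped, at 1.40 to 2.95 and 0.838 to 3.80. So 2 of 4 members were higher on all 3 arrays than on all 4 others, beside 10.6% of all probe sets, and 1 of 4 was lower on all 3, beside 15.1%. The separations held with the intensities as deposited, centred on the array median and quantile normalized.

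With a term for the 3 arrays, the standard error of the genotype difference was 0.17 for UGT78D2 and 0.18 for UF3GT, against 0.38 and 0.48 without it. The split was read from these same data, and both genes separate along it. The smaller standard errors therefore follow from that choice, and the intervals of this fit may be too narrow. The difference of UGT78D2 was then -0.0093, with an interval of -0.40 to 0.38. That of UF3GT was 0.24, with an interval of -0.18 to 0.65 (limma adjusted p = 0.93). UGT78D1 was at 0.0069, with an interval of -0.31 to 0.33. On the 4 other arrays alone, myb5 replicates 2 and 3 against wild-type replicates 3 and 4, the differences were -0.087 for UGT78D2, -0.0032 for UF3GT, -0.082 for UGT78D1 and -0.047 for AT4G14090. Among the 3 arrays, where myb5 replicate 1 stands alone and its spread is assumed to be that of the wild-type arrays, the value for UF3GT was 0.60; with 1 myb5 array this is a description and no test.

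Other measures moved along the same split, beside 10.6% of all probe sets that were higher on all 3 arrays and 15.1% that were lower. The part of these measures in the values of UGT78D2, UF3GT and UGT78D1 was not tested. Late seed maturation markers, 2 of 4 measured, summed to 5075 to 7343 on the 3 arrays and 628 to 1485 on the other 4. These were PAP85, a storage protein gene, and OLEO3, an oleosin gene. The seed coat markers BAN and ARA12 (SBT1.7) summed to 7890 to 8582 on the 3 arrays and 12348 to 13197 on the other 4. The leaf photosynthesis marker measured, RCA, had 473 to 573 and 145 to 249, and the fruit wall marker measured, ALC, had 49.3 to 70.9 and 78.1 to 119.7. The dim embryo marker CLV3 and the dim endosperm markers AGL62 and IKU2 each overlapped between the sets. Among 6 pairs of control probe sets that give a 5'/3' signal ratio, 1 set the arrays apart, a GAPDH pair at 0.156 to 0.208 on the 3 arrays and 0.0809 to 0.0934 on the other 4. Another GAPDH pair did not separate the sets but did separate the genotypes, at 0.495 to 0.516 in myb5 and 0.552 to 0.632 in wild type. Its part in the genotype differences of the 4 genes was not tested. In whole seeds, fewer cells of a type and less RNA per cell cannot be told apart.

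The members also differed among themselves in array profile. As a measure of likeness, each gene was centred on its mean normalized log2 level over the 7 arrays, and the root mean square difference between a pair of genes was taken. UF3GT and UGT78D2, the pair that act on anthocyanins and were above an intensity of 16, lay 0.29 apart. Set among the 4020 genes with a mean log2 level of at least 7, UGT78D2 would rank 44 in likeness to UF3GT, where the median gene lay 0.71 away. UGT78D1 and UGT78D2, which are related in sequence and both act on flavonols, lay 0.67 apart. UGT78D2 would rank 3803 among 4019 genes in likeness to UGT78D1, where the median gene lay 0.29 away. Profiles of flat genes lie close to most others, so these ranks describe each gene's own neighbourhood only.

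The genes most like UGT78D2 were AT3G14240 (0.078 apart), RD2 (0.097) and PSBY (0.097), the last a photosystem II subunit gene. Each of them was higher on the 3 arrays than on the other 4: AT3G14240, for example, had 801, 450 and 334 in myb5 replicates 1, 2 and 3, against 722, 784, 373 and 412 in wild-type replicates 1, 2, 3 and 4. The genes most like UF3GT were AT2G16990 (0.12 apart), AT3G15900 (0.15) and psbB (0.16), a plastid gene for a core photosystem II protein. AT2G16990 had 814, 243 and 196 in myb5 replicates 1, 2 and 3, against 594, 399, 191 and 233 in wild-type replicates 1, 2, 3 and 4, so it too was highest on myb5 replicate 1. The genes most like UGT78D1 were AT2G29660 (0.060 apart), SAY1 (0.063) and AT5G65910 (0.065), all highest in wild-type replicate 4. Those nearest to AT4G14090 were AT2G36720 (0.035 apart), AT1G51610 (0.035) and AT2G27720 (0.049). These are much brighter genes with flat profiles, as the dim probe set also has on this scale. All of these likenesses are over the same 7 arrays, which share the split. The genes were picked by profile, so that they share a member's high and low arrays follows from the choice and is no separate result.

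**Figure D3:**
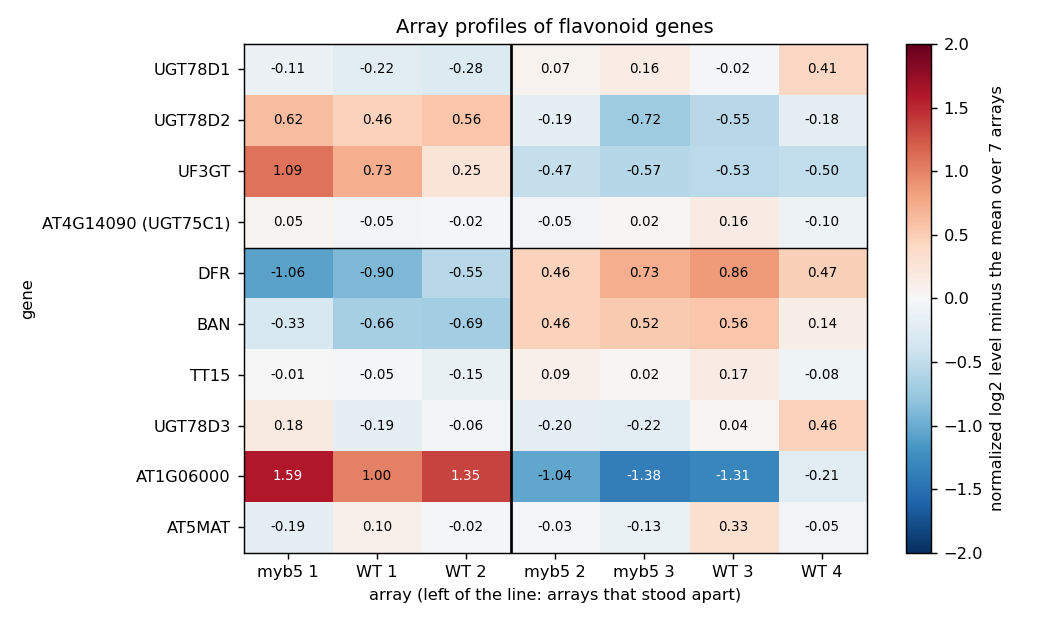
Normalized log2 level of each flavonoid gene (rows) on each array (columns) minus its mean over the 7 arrays, with the 3 arrays that stood apart left of the vertical line and the 4 members above the horizontal line. UGT78D2, UF3GT and AT1G06000 are above their mean on the 3 arrays, whereas DFR and BAN are below theirs.

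Around the members, few flavonoid pathway genes were found by name. Of 41 genes in 4 lists, 6 had a probe set naming them alone, and 0 of the 6 passed the limma threshold in either direction or had an unadjusted p under 0.05. In the lists of core flavonoid steps and of regulators, 0 genes of 6 and 16 had a probe set naming them alone. A pathway or marker gene is called measured here only if the annotation names it alone. With 8730 probe sets unnamed in that annotation, the remaining genes may be on the array without a name and were not looked up. DFR, which encodes dihydroflavonol reductase and feeds both anthocyanins and tannins, had 1383 to 2143 on the 3 arrays and 3906 to 5381 on the other 4. BAN, for anthocyanidin reductase of the tannin branch, had 2684 to 3424 and 4681 to 6754. DFR and BAN were thus lower on the 3 arrays where UGT78D2 and UF3GT were high, as were 15.1% of all probe sets. A relation between these genes was not tested. UGT80B1 (TT15), a sterol glucosyltransferase gene of the seed coat, overlapped between the sets, at 193 to 223 and 216 to 257.

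Among genes for flavonoid decoration, 3 of 11 were measured, and the log2 differences between the genotypes were -0.48 to -0.15. Of these 3, AT1G06000 (UGT89C1) alone was separated along the split, being higher on the 3 arrays, beside 10.6% of all probe sets. Its intensity was 120.4, 7.03 and 1.73 in myb5 replicates 1, 2 and 3, against 73.9, 94.2, 2.18 and 21.8 in wild-type replicates 1, 2, 3 and 4. It was above 73 on each of the 3 arrays and below 22 on each of the other 4, and its genotype difference was -0.48 (standard error 0.88, limma adjusted p = 1.00). UGT78D3, an arabinosyltransferase gene for flavonols, lies on chromosome 5 with 1 protein-coding gene between it and UGT78D2. It was dim, at 12.2, 6.31 and 5.91 in myb5 replicates 1, 2 and 3, against 5.61, 8.07, 8.99 and 16.5 in wild-type replicates 1, 2, 3 and 4. The sets of arrays overlapped for UGT78D3, but all but 1 of its values lay under an intensity of 16, so they do not show whether its transcript was present or followed that of UGT78D2. Whether UGT78D1, UGT78D2 and UGT78D3 share signal through similar probes was not tested. AT5MAT, an anthocyanin malonyltransferase gene, stayed at or below 7.47 on every array, and its difference was -0.20 (limma adjusted p = 1.00).

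Across the wider family, 45 other genes with a UGT symbol had a probe set of their own, and 0 of them passed the limma threshold. AT1G06000, listed by locus tag only, is not among them. The median log2 difference of the 45 was -0.046. Of them 13 lay above 0 and 32 below, beside 11351 above and 11395 below among all probe sets. Most of the 45 were dim. Among the 10 with a mean log2 level of 7 or more, 4 lay above 0 and 6 below. The differences of the 45 ran from -0.54 to 0.50. The 4 members, from -0.17 to 0.066, lay inside that range. UGT84A3, a glucosyltransferase gene for hydroxycinnamates, had a difference of -0.54 with a standard error of 0.69. Its intensity was 404, 146 and 60.7 in myb5 replicates 1, 2 and 3, against 512, 326, 93.5 and 179 in wild-type replicates 1, 2, 3 and 4. Like UGT78D2, it was high on the same 3 arrays of mixed genotype. UGT74F1 had a difference of -0.34 and stayed below an intensity of 12.

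On the other side, UGT72B3 had a difference of 0.50 (standard error 0.17, limma adjusted p = 1.00, unadjusted p = 0.0186). Its intensity was 33.8, 26.8 and 19.2 in myb5 replicates 1, 2 and 3, against 17.7, 14.0, 9.78 and 8.51 in wild-type replicates 1, 2, 3 and 4. All myb5 arrays lay above all wild-type arrays, by a small margin. It was the 1 gene of 45 without overlap, beside 4.88% of all probe sets. It was also the 1 gene of 45 with an unadjusted limma p under 0.05, beside 3.46% of all probe sets. UGT71C1 had a difference of 0.42 and stayed below 15. Along the split, 8 of 45 were higher on all 3 arrays and 3 of 45 lower, beside 10.6% and 15.1% of all probe sets. UGT84B1 and UGT88A1, named after their values were seen, are bright examples: UGT84B1 had 355 to 518 on the 3 arrays and 118 to 214 on the other 4, and UGT88A1 had 647 to 682 and 975 to 1290.5.

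**Figure D4:**
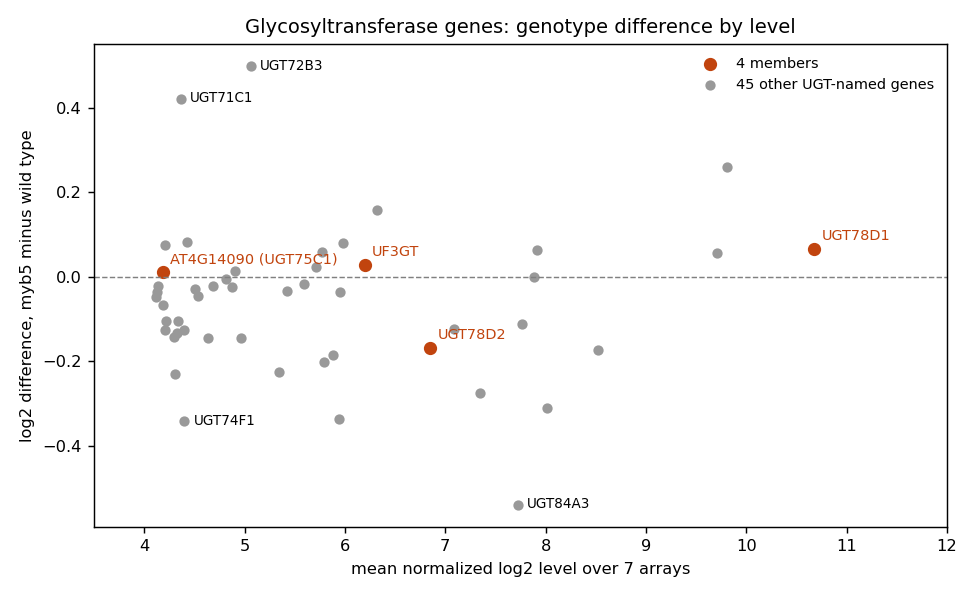
Log2 difference, myb5 minus wild type (vertical axis), against the mean normalized log2 level over the 7 arrays (horizontal axis), for the 4 members and 45 other UGT-named genes. The members lie between -0.17 and 0.066, within the family's range of -0.54 to 0.50.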

How the data were processed

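Per the labels' protocols, seed RNA went through 2 cycles of oligo(dT)-primed amplification and was labelled with biotin, with 1 array per sample. The deposited values are linear intensities for 22810 probe sets, and no source used here names the software that made them. The mean without the outer 2% of probe sets at each end was 150.01 on every array, so each had been scaled before deposit. The 64 control probe sets were left out. Here log2(intensity + 16) was quantile normalized and fitted with limma (version 3.58.1, R 4.3.3), with genotype as the only term and Benjamini-Hochberg adjustment over 22746 probe sets. The fit was tested on simulated data with independent noise on each array. Those data held no split among the arrays, so that test does not cover its effect. The number of arrays limits the precision. The labels call the samples biological replicates without saying what was pooled.

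The array's annotation table names 1 gene for 13513 probe sets, several for 503 and none here for 8730. Gene symbols were updated through a RefSeq table of TAIR10.1. That table lists UGT75C1 as AT4G14090. The members, lists and alternatives were chosen with earlier results of these data known. Named genes are the 4 members, up to 4 of each pathway list by size of difference, the 2 highest and 2 lowest UGT genes, and the 3 genes most like each member. Measured genes of the marker lists are named as descriptions, and UGT84B1 and UGT88A1 were named outside the rule, after their values were seen.

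Alternatives were other scalings, pseudocounts of 1 and 64, filters on the dimmest 30% and 50%, the replicate block, trend and robust settings, array weights, a term for or fits within the sets of arrays, and leaving out each array.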

Additional observations from a re-analysis of the deposited data

Results flagged for a closer look

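Among the genes named here, 3 of 34 wild-type groups held 1 array far from the remaining 3, where chance gives about 1 in 20. The groups share the same 4 wild-type arrays, so they are not independent. In all 3 the far array was wild-type replicate 3. On the normalized log2 scale it lay at 4.11 for CLV3, with the remaining wild-type arrays at 4.50 to 4.55, and it lay at 4.68 for IKU2, where those ran from 4.26 to 4.33. It lay at 7.27 for AT1G51610, beside 7.08 to 7.09; this gene was picked for its likeness to AT4G14090, which was also highest in wild-type replicate 3. CLV3 and IKU2 lay under an intensity of 16 on every wild-type array. None of the 4 flavonoid glycosyltransferase genes had such a far array.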

How the results depend on the processing

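None of the 4 genes passed the limma threshold under any alternative run, with adjusted p from 0.70 to 1.00. The filters on dim probe sets removed AT4G14090, so they give no value for it. Signs changed as follows. UF3GT was at -0.13 with the replicate block, -0.14 with array weights and -0.0032 on the other 4 arrays alone. UGT78D1 was at -0.034 with arrays centred on their median and -0.082 on the other 4 arrays alone. UGT78D2 was at 0.11 within the 3 arrays that stood apart. UGT75C1 (AT4G14090) was at -0.022 with median centring, -0.022 with the replicate block, -0.0050 with array weights and -0.047 on the other 4 arrays alone. Leaving out each array in turn gave -0.51 to 0.32 for UF3GT, -0.017 to 0.21 for UGT78D1, -0.52 to 0.14 for UGT78D2 and -0.022 to 0.066 for AT4G14090. Only wild type has a replicate 4, so the replicate block gives the same differences as leaving out wild-type replicate 4. The cause of the changes was otherwise not tested.

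Over all probe sets 1 was called, against 0 with the replicate block, 0 on the other 4 arrays alone and 0 within the 3 arrays, fits with fewer residual degrees of freedom. Leaving out each array gave 1 to 2 calls, with 2 without myb5 replicate 1. Deviations of same-numbered samples correlated at 0.63, -0.30 and 0.55, so the numbers are not taken to pair the samples. With the block the log2 differences were 0.21 for UGT78D1 and -0.25 for UGT78D2, the same as without wild-type replicate 4.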
